A study of Mus musculus with 32 samples.

Results

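The 10 genes studied here, of the vascular endothelial growth factor (VEGF), angiopoietin and adrenomedullin systems, were followed across the cells of the mouse median eminence (ME), 10 of the 27998 genes in the deposited matrix. They were taken by symbol: the ligands Vegfa, Pgf, Angpt1, Angpt2 and Adm, the receptors Flt1, Kdr and Tek, the endothelial nitric oxide synthase Nos3, and Plvap, a component of the diaphragms that close the pores of fenestrated vessels. Each symbol matched 1 row. None of the 10 was a marker of a cell type, and all were left out of the variable genes used to cluster the cells.

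Single live cells had been sorted from the dissociated ME of C57B/L6 mice, which the methods give as males of 40 to 47 days, and sequenced from the 3' end of the transcripts with unique molecular identifiers (UMIs). One pool held the ME of 5 mice that had fasted for 16 h, the other pool that of 5 mice given food again for 1 h after such a fast. Each condition is therefore 1 pool of animals, divided over 2 libraries. The matrix holds both conditions together, in 5982 cells with 29288898 UMIs and a median of 3837 UMIs per cell. Each barcode carries a suffix (1, 2, 3 or 4), called the barcode number here. No label says which library or condition a suffix stands for, and no comparison of fasting with refeeding was made. The values of the 4 numbers are given as parts of 1 sample. The numbers held 1642, 1493, 1359 and 1488 cells, and 21 barcodes (42 cells) occurred under more than 1 number.

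Cells were clustered and each cluster was called after marker genes, with the ending "-like". Of 25 clusters, 22 were called, giving 13 cell types. Among them were 84 endothelial-like, 78 mural-like, 289 VLMC-like (vascular and leptomeningeal), 1419 astrocyte-like, 1013 tanycyte-like and 83 pars tuberalis-like cells, the last from the pituitary tissue that covers the ME. The markers of each type were highest in that type, except Cspg4 of the mural list, which was higher in OPC-like cells (oligodendrocyte progenitors). The clusters were made from the same cells, so differences between types are descriptions and carry no test.

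Vegfa signals through Kdr, the main signalling receptor of vessel growth and permeability, while Flt1 binds both Vegfa and Pgf and can act as a decoy. Angpt1, an agonist that steadies vessels, and Angpt2, which mostly opposes it, share the receptor Tek (Tie2). Adrenomedullin (Adm) is a dilating peptide whose receptor is made of Calcrl with Ramp2 or Ramp3. The capillaries of the ME are fenestrated and let hormones pass, unlike the capillaries with a blood-brain barrier around them. Tanycytes are ependymal cells, some of which contact both the ventricle and the fenestrated vessels.

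The 3 receptors had their highest level in endothelial-like cells in every barcode number, and for that reason the 250 bases upstream of their starts are shown. They come from RefSeq on GRCm38.p6 and are written 5′ to 3′ on the strand of the gene, with GGAA and its reverse complement TTCC, the core letters bound by ETS factors, in capitals. The windows are chr5:147726012-147726261 for Flt1 and chr5:75978456-75978705 for Kdr, both on the minus strand, and chr4:94739039-94739288 for Tek on the plus strand.
Flt1: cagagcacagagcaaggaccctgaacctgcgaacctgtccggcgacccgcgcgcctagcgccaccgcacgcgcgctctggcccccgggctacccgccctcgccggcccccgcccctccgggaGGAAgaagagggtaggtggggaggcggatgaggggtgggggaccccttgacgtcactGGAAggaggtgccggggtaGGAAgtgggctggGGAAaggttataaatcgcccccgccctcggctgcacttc
Kdr: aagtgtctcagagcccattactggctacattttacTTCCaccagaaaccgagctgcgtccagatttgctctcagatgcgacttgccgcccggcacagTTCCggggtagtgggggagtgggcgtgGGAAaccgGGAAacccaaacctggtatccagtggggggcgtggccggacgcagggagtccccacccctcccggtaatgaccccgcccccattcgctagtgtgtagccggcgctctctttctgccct
Tek: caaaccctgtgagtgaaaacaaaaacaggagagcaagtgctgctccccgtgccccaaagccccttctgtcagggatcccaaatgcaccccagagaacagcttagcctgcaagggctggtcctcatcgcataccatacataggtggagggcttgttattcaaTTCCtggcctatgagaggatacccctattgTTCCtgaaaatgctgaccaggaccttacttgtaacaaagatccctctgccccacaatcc
The Flt1 and Kdr windows held 4 matches each and the Tek window 2, counting both strands. Of 27025 RefSeq promoter windows of the same length, 93.4% held at least 1 match, with a median of 3, and 33.4% held 4 or more. The longer string AGGAAG matched 2 times in the Flt1 window, each time around a GGAA match, and not in the other two, and 29.2% of all windows held it. A match describes the letters only.

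**Figure D1:**
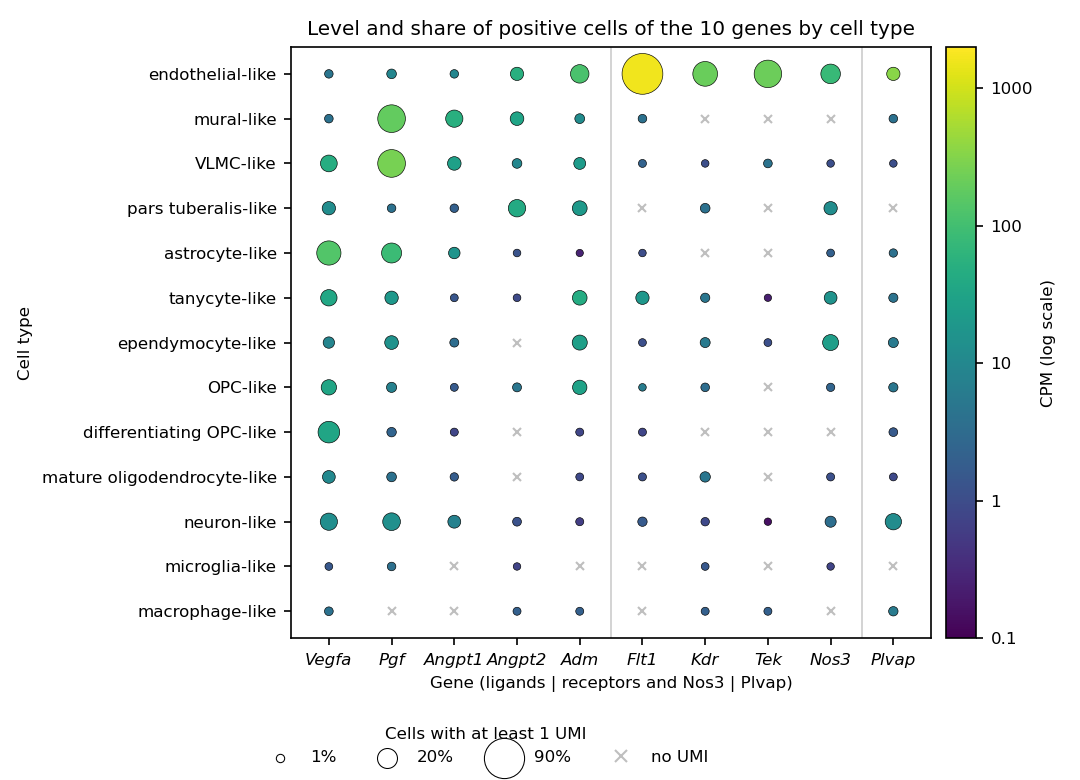
Level and share of positive cells of the 10 genes (x axis) in the 13 cell types (y axis). Colour gives CPM on a log scale, dot area grows with the share of cells with at least 1 UMI, and a cross marks no UMI; Flt1 in endothelial-like cells, at 1605 CPM, has the largest dot.

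Levels are UMIs of the gene per 1000000 UMIs of the group (CPM), with an exact Poisson 95% interval in brackets, and shares of cells have exact Clopper-Pearson intervals. These intervals cover counting error only. Of the 84 endothelial-like cells, 78 had UMIs of the barrier gene Cldn5 and none of Plvap. They held 199603 of the 215009 UMIs of the type, so pooled endothelial levels mostly describe these cells. All 10 genes passed the minimum of 50 UMIs, with 1052 UMIs for Vegfa, 959 for Pgf, 568 for Flt1, 323 for Adm, 243 for Plvap, 204 for Nos3, 179 for Angpt1, 115 for Kdr, 76 for Angpt2 and 56 for Tek. Of these genes, 7 were at least 4-fold higher in endothelial-like cells than in all other cells (Flt1, Kdr, Tek, Nos3, Angpt2, Adm and Plvap), where 3.06% of 13953 genes were. Tek, with 9 UMIs outside the endothelial-like cells, reached the minimum only through them. With the minimum applied to the other cells, 6 of 9 members and 2.85% of 13913 genes were at least 4-fold higher. Without barcode number 1 the 7 members became 5, since Angpt2 and Adm no longer passed. The log2 ratios, with 10 CPM added to each level, were 6.53 for Flt1, 4.48 for Plvap, 4.48 for Tek, 4.15 for Kdr, 2.64 for Adm, 2.44 for Nos3 and 2.32 for Angpt2. The median over the 10 genes was 2.54 and over all genes tested -0.30. One member, Pgf, passed the same fold in mural-like cells (2.37% of genes) and in VLMC-like cells (2.33% of genes), and 1 member, Vegfa, in astrocyte-like cells (1.64% of genes). In mural-like cells Angpt1 and Angpt2 lay just under the fold, at log2 ratios of 1.98 and 1.77. With any 1 barcode number left out 2 members passed there, Pgf with Angpt2 without number 1 or 2 and Pgf with Angpt1 without number 3 or 4. Adm passed in the tanycyte-like cluster that holds most Col25a1 (0.323% of genes).

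Vegfa (ENSMUSG00000023951, chromosome 17, 46016993 to 46032369, minus strand, GRCm38) was highest in astrocyte-like cells, which held 532 UMIs or 50.6% of all UMIs of the gene. Its level there was 144, 150.5, 129.6 and 115 CPM in barcode numbers 1 to 4, and 136 CPM (124 to 148) together. VLMC-like cells followed with 48.4 CPM (35.1 to 64.9), tanycyte-like cells with 36.7 (31.2 to 42.9), differentiating OPC-like cells with 34.4 and OPC-like cells with 33.4. The lowest barcode number of astrocyte-like cells lay above the highest of any of these types, whereas these 4 types overlapped in their intervals and in their ranges over numbers. Astrocyte-like cells were 3.70 times (3.09 to 4.44) as high as tanycyte-like cells. The vessel cells themselves held almost none, with 1 UMI in endothelial-like and 1 UMI in mural-like cells.

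Of the astrocyte-like cells, 30.8% (28.4 to 33.3) had a Vegfa UMI. The share was 0.495% in microglia-like cells, taken as the level of free RNA, at median depths of 2665 and 3086.5 UMIs per cell. With every cell thinned to 1000 UMIs, the shares were 13.9% and 0.248%. The 2 large astrocyte-like clusters, of 965 and 417 cells, had 138 and 135 CPM. In tanycyte-like cells Vegfa differed between the clusters. The cluster of 403 cells with Col25a1 at 516 CPM had 39.4, 60.2, 61.6 and 50.2 CPM of Vegfa by number, and the cluster of 610 cells with Col25a1 at 21.9 CPM had 31.8, 28.5, 17.9 and 13.5. The ratio was 2.20 (1.57 to 3.12), and the first cluster was higher in each of the 4 numbers.

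Pgf (ENSMUSG00000004791, chromosome 12, 85166635 to 85177790, minus strand), the placental growth factor, was highest in VLMC-like cells. The barcode numbers gave 356, 363, 199.8 and 149.7 CPM, and the level was 263 CPM (230.5 to 298) together. Mural-like cells had 188, 107, 205 and 222 CPM, and 184 CPM (135 to 246) together. The ratio of the 2 types was 1.43 (1.04 to 2.00), but their ranges over numbers overlapped and their order was turned in numbers 3 and 4. Astrocyte-like cells came next with 84.5 CPM (75.6 to 94.1), below the mural level by 2.18 times (1.57 to 2.98), with 71.7 to 98.1 CPM over the numbers, all under the lowest mural value. Tanycyte-like cells had 19.3 CPM and did not differ beyond the intervals from ependymocyte-like cells at 15.6 CPM.

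The share of Pgf-positive cells was 41.2% in VLMC-like, 41.0% in mural-like and 20.01% in astrocyte-like cells, against 1.24% in microglia-like cells, at median depths of 2915, 3000, 2665 and 3086.5 UMIs. At 1000 UMIs per cell the shares were 21.8%, 20.5%, 8.32% and 0%. The 1419 astrocyte-like cells held 34.5% of all Pgf UMIs, against 24.9% for VLMC-like and 4.80% for mural-like cells. An uncalled cluster of 413 cells, with Gfap at 597 CPM and the tanycyte marker Rax at 260 CPM, had 58.9 CPM (48.3 to 71.0) of Pgf. Endothelial-like cells had 2 UMIs.

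Angpt1 (ENSMUSG00000022309, chromosome 15, 42424723 to 42676977, minus strand) had its highest level in mural-like cells, on 13 UMIs. The numbers gave 56.4, 71.2, 43.9 and 41.7 CPM, and 52.1 CPM (27.7 to 89.0) together. VLMC-like cells had 33.7, 18.4, 37 and 14.03 CPM, and 26.4 CPM (16.9 to 39.3) together. All 4 mural values were above all 4 VLMC values, but the interval of their ratio, 1.97 (0.923 to 4.03), included equal levels. Astrocyte-like cells had 17.1 CPM (13.3 to 21.7) and, with 67 UMIs, the largest part of the gene's UMIs at 37.4%. Neuron-like cells had 7.45 CPM, and microglia-like and macrophage-like cells had no UMI.

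Angpt2 (ENSMUSG00000031465, chromosome 8, 18690263 to 18741562, minus strand) was sparse, and no order of its 3 highest types can be read from the counts. Endothelial-like cells had 11 UMIs and 51.2 CPM (25.5 to 91.5), at 147.6, 25.2, 0 and 31.2 CPM over the numbers. Of the 11 UMIs, 5 came from 1 cell of number 1, and without that number the level was 18.7 CPM. Pars tuberalis-like cells had more UMIs, 20, and the steadiest values, at 33.7, 58.0, 35.8 and 43.0 CPM, or 40.8 CPM (24.9 to 63.0) together. Mural-like cells had 8 UMIs and 32.0 CPM (13.8 to 63.1), all in numbers 3 and 4. The ratio of endothelial-like to pars tuberalis-like cells was 1.26 (0.543 to 2.75). Angpt2 overlaps Mcph1 on the opposite strand, which had 0 UMIs in endothelial-like, 3 in pars tuberalis-like and 2 in mural-like cells, and the part of this overlap was not tested.

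Adm (ENSMUSG00000030790, chromosome 7, 110627661 to 110629820, plus strand) had its most UMIs in tanycyte-like cells and nearly all of them in 1 cluster. The cluster with Col25a1 had 191 UMIs, 59.1% of all UMIs of the gene, at 87.0, 118.6, 92.3 and 84.5 CPM by number and 96.7 CPM (83.5 to 111) together. The larger tanycyte-like cluster had 1 UMI. The ratio was 225 with an interval of 39.9 to 8925. This was the sharpest division of a member between 2 clusters of 1 type. A UMI was seen in 23.3% (19.3 to 27.8) of the 403 cells, against 0 of 404 microglia-like cells, which allows a share of up to 0.743%. The median depths were 4906 and 3086.5 UMIs, and at 1000 UMIs per cell the shares were 6.45% and 0%.

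Endothelial-like cells had Adm at 258, 75.5, 60.9 and 62.5 CPM by number and 116 CPM (75.2 to 172) together, on 25 UMIs in 14 cells. Number 1 was far above the others, and without it the level was 68.4 CPM. Endothelial-like cells and the Col25a1 cluster did not differ beyond counting error, with a ratio of 1.20 (0.759 to 1.83). OPC-like cells had 30.1 CPM (21.2 to 41.5), ependymocyte-like cells 25.7, VLMC-like cells 22.0 and pars tuberalis-like cells 20.4, with overlapping intervals. Astrocyte-like cells had 1 UMI in 1419 cells.

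**Figure D2:**
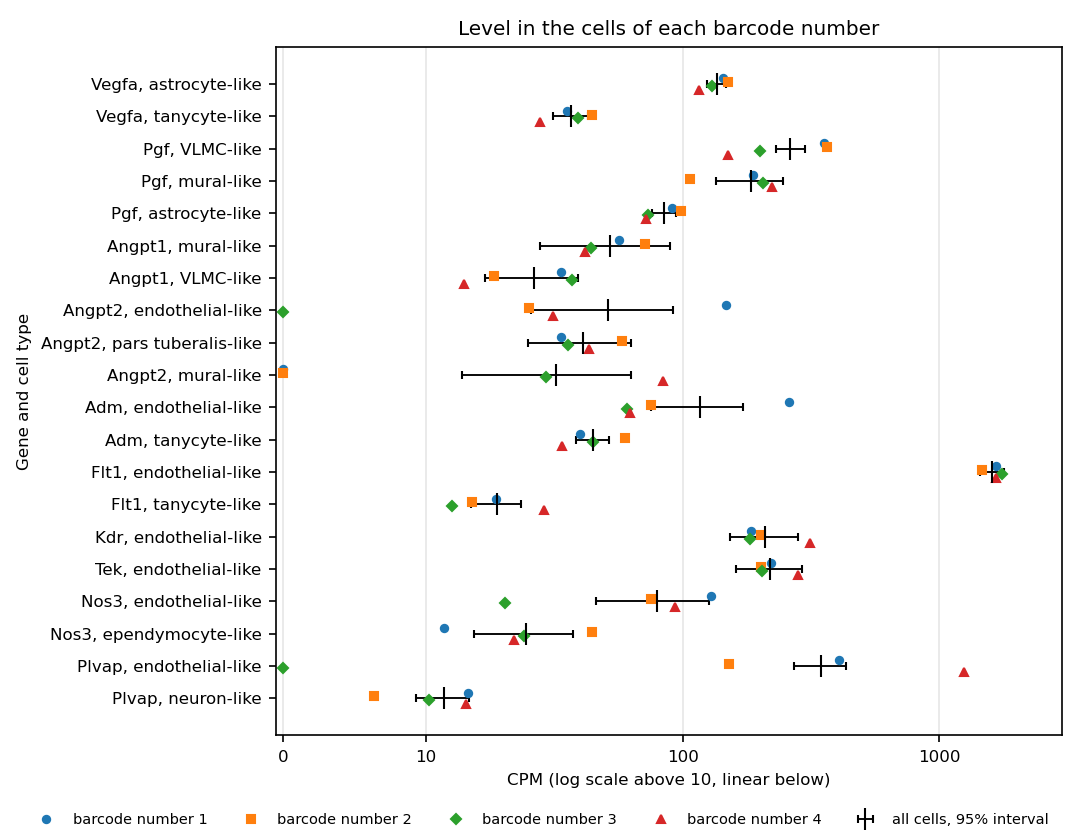
CPM (x axis, log above 10 and linear below) of gene and cell type pairs (y axis), with 1 symbol for each barcode number and a bar for the level in all cells with its 95% Poisson interval. The 4 symbols lie close for Flt1, Kdr and Tek in endothelial-like cells and far apart for Plvap, from 0 to 1249 CPM.

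Flt1 (ENSMUSG00000029648, chromosome 5, 147561604 to 147726011, minus strand) had the largest endothelial log2 ratio of the 10 genes, while its UMIs outside these cells were 223 against 9 for Tek. The numbers gave 1660, 1459, 1746 and 1655 CPM in endothelial-like cells and 1605 CPM (1440 to 1783) together. A UMI was present in 78 of the 84 cells, or 92.9% (85.1 to 97.3), and in 72.6% at 1000 UMIs per cell, against 0 of 404 microglia-like cells, which allows up to 0.743%. The median depths were 2245.5 and 3086.5 UMIs. Tanycyte-like cells came next at 18.8 CPM (14.96 to 23.4), lower by 85.2 times (66.7 to 109.9). All other types were at 6.51 CPM or less, and in OPC-like cells all 8 UMIs came from 1 cell.

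The low Flt1 level outside the vessels was uneven. The uncalled Gfap cluster had 50.2 CPM (40.5 to 61.5) at 35.6, 48.6, 62.0 and 59.6 CPM by number, with a UMI in 17.2% of its cells. The larger tanycyte-like cluster had 30.5 CPM (23.8 to 38.5), at 31.8, 23.1, 20.1 and 43.9 by number. The Col25a1 cluster had 5.06 CPM (2.43 to 9.31), lower than the larger cluster by 6.03 times (3.10 to 13.1) and lower in each number. Astrocyte-like cells had 1.02 CPM, on 4 UMIs in 1419 cells. Flt1 and Adm thus fell on opposite sides of the division of the tanycyte-like cells.

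Kdr (ENSMUSG00000062960, chromosome 5, 75932827 to 75978458, minus strand) had 45 UMIs in endothelial-like cells, at 184.5, 201, 183 and 312 CPM by number and 209 CPM (153 to 280.1) together. The next type, ependymocyte-like cells, had 5.59 CPM on 5 UMIs, and the ratio was 37.5 (14.9 to 121). A UMI was seen in 32.1% of the endothelial-like cells and in 0.495% of the microglia-like cells, and in 15.5% and 0% at 1000 UMIs per cell. From ependymocyte-like to pars tuberalis-like cells, the next 4 types in order, neighbours did not differ beyond the intervals. Mural-like cells had no Kdr UMI, which allows up to 12.02 CPM, and astrocyte-like cells had none in 1419 cells, which allows up to 0.766 CPM.

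Tek (ENSMUSG00000006386, chromosome 4, 94739289 to 94874976, plus strand) was almost confined to endothelial-like cells, which held 83.9% of its UMIs. The 47 UMIs gave 221, 201, 203 and 281 CPM by number and 219 CPM (161 to 291) together, with a UMI in 40.5% of the cells (20.2% at 1000 UMIs per cell) against 0 of 404 microglia-like cells. VLMC-like cells followed with 4 UMIs and 4.40 CPM, and the ratio was 49.7 (18.2 to 190.0). Mural-like cells, which had the highest Angpt1 level, had no Tek UMI.

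Nos3 (ENSMUSG00000028978, chromosome 5, 24364810 to 24384474, plus strand) was highest in endothelial-like cells but less so than the receptors. The 17 UMIs gave 129, 75.5, 20.3 and 93.7 CPM by number and 79.1 CPM (46.1 to 127) together. Ependymocyte-like cells had 11.8, 44.5, 23.996 and 22.02 CPM, and 24.6 CPM (15.4 to 37.2) together. The intervals were apart, with a ratio of 3.22 (1.60 to 6.35), while the ranges over numbers overlapped through number 3. Tanycyte-like cells had 16.04 CPM (12.5 to 20.3) and, with 69 UMIs, 33.8% of the gene's UMIs, against 8.33% for endothelial-like cells. Astrocyte-like cells had 2.04 CPM, 12.04 times (5.16 to 31.3) below ependymocyte-like cells. Nos3 overlaps Gm15587 and Atg9b on the opposite strand, and no source used here states whether strand was used in counting. Gm15587 had 9 UMIs in ependymocyte-like cells and Atg9b 149 UMIs in neuron-like cells, and their part in the Nos3 counts was not tested.

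**Figure D3:**
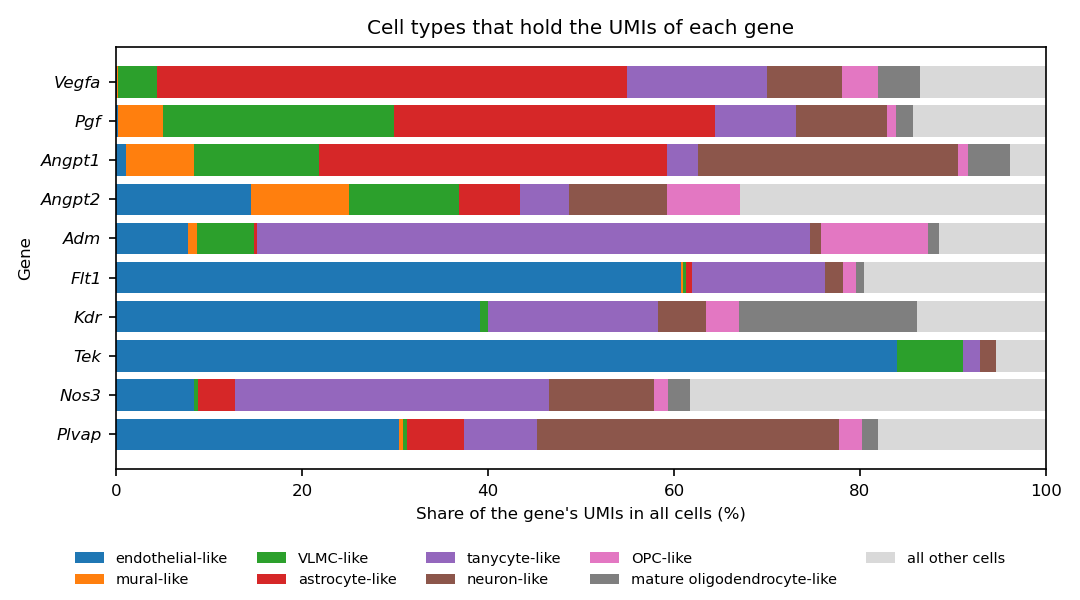
Share of each gene's UMIs in all cells (x axis, %) held by 8 cell types, with all other cells in grey. Endothelial-like cells hold 83.9% of the Tek UMIs but 8.33% of the Nos3 UMIs, and astrocyte-like cells hold 50.6% of the Vegfa UMIs.

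Plvap (ENSMUSG00000034845, chromosome 8, 71497765 to 71511752, minus strand) reached 344 CPM (270.3 to 432) in endothelial-like cells, but all 74 UMIs came from 6 of the 84 cells, or 7.14% (2.67 to 14.9). The cells held 20, 14, 12, 11, 11 and 6 Plvap UMIs, so none of them was positive on a single UMI. Numbers 1 to 4 held 2, 1, 0 and 3 of the cells, giving 406, 151, 0 and 1249 CPM, and without number 4 the level was 186 CPM. In the other 78 endothelial-like cells Plvap had no UMI. The share was 7.14% also at 1000 UMIs per cell. One of the 6 cells was among the 50 called doublets.

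Outside the vessels, neuron-like cells had 11.8 CPM (9.31 to 14.7) of Plvap, on 79 UMIs of which 74 lay in 1 cluster of 382 cells, with at most 3 in a cell. A UMI was seen in 12.4% of the neuron-like cells at a median of 13043 UMIs per cell, and in 0.375% once each cell was thinned to 1000. Plvap overlaps Gtpbp3 on the opposite strand, which had 48 UMIs in neuron-like and 1 in endothelial-like cells, and the part of this overlap was not tested. Microglia-like cells had 0 UMIs in 404 cells, at a median of 3086.5 UMIs. The uncalled Gfap cluster had 15.1 CPM, on 28 UMIs.

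The 6 Plvap-positive and 78 Plvap-negative endothelial-like cells had median depths of 2274.5 and 2245.5 UMIs. The endothelial markers Pecam1, Cdh5, Emcn and Itm2a had a UMI in all 6 positive cells, and in 45, 36, 54 and 76 of the 78 negative cells. The levels of the 8 endothelial markers were not all alike in the 2 groups. Relative to the negative cells, Itm2a was at 0.404 times (0.301 to 0.531), Ly6c1 at 0.257 (0.160 to 0.391) and Ctla2a at 0.447 (0.242 to 0.758). Emcn was at 7.47 times (5.35 to 10.4) and Egfl7 at 1.68 (1.14 to 2.41). The intervals of Pecam1, Cdh5 and Esam included equal levels. Cldn5, the main tight-junction claudin of barrier vessels, had 1256 UMIs in the negative cells, in each of the 78, and none in the 6 positive cells, at least 32.3-fold lower. Slc2a1, the glucose transporter of the barrier, had 554 UMIs in all 78 negative cells and none in the 6, at least 14.3-fold lower. Slco1c1, a thyroid hormone transporter, was at least 5.04-fold lower, Ocln at least 2.55-fold, Mfsd2a at least 1.83-fold and Lef1 at least 1.62-fold, each with no UMI in the 6 cells. The floor behind these bounds is 3 UMIs over the 6 cells.

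Of the other barrier genes, Slco1a4 was at 0.0408 times (0.00840 to 0.12) and Slc7a5 at 0.0348 times (0.000879 to 0.195) the level of the negative cells. The exporter Abcb1a was at 0.305 times (0.0821 to 0.795), on 4 UMIs in 3 of the 6 positive cells, and the exporter Abcg2 was at 0.717 times (0.376 to 1.25), an interval that includes equal levels. The 10 barrier genes together gave 421 to 3033 CPM per cell in the positive cells and 3895 to 37442 CPM in the negative cells, with medians of 998 and 21194 CPM. The groups did not overlap.

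**Figure D4:**
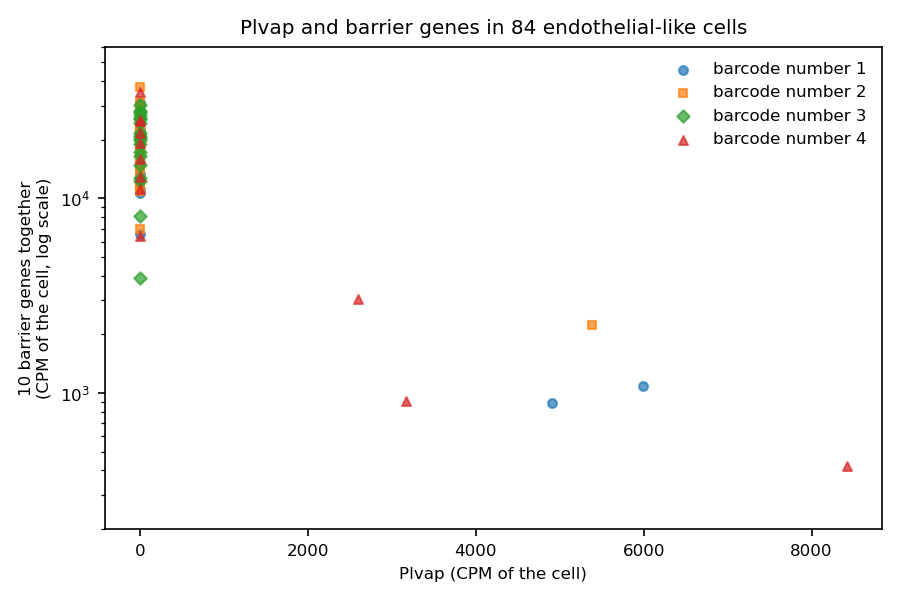
Plvap (x axis, CPM of the cell) against the 10 barrier genes together (y axis, CPM of the cell, log scale) in the 84 endothelial-like cells, with 1 point per cell and a symbol for each barcode number. The 6 cells with Plvap lie between 421 and 3033 CPM of barrier genes, all below the 78 cells without Plvap.

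Of the 4 genes listed for endothelium without a barrier, 3 had UMIs in Plvap-positive cells and none in Plvap-negative cells, but nearly all of them came from 1 cell, the one with 14 Plvap UMIs. It held 18 of the 19 UMIs of Esm1, a product of VEGF-stimulated endothelium, 3 of the 4 of Gpihbp1 and all 5 of Aqp1. The remaining Esm1 and Gpihbp1 UMIs were in the cell called a doublet, and the other 4 positive cells had none. Cd36 had none in either group. Kdr was at 909 CPM in the positive and 155 CPM in the negative cells, a ratio of 5.85 (2.88 to 11.3). The 6 cells held 0, 8, 1, 3, 1 and 1 Kdr UMIs, so 8 of the 14 were in the cell that held the 18 Esm1 UMIs. Tek was 2.66 times (1.07 to 5.77) as high, and Flt1 0.713 times (0.417 to 1.15) as high, which includes equal levels. Adm had no UMI in the positive and 25 in the negative cells, but 3 UMIs in the positive cells would be a higher level than that of the negative cells, so no difference was detectable at this depth.

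The wider VEGF list had 6 genes, of which 5 had enough UMIs for the fold. In endothelial-like cells, where 3.06% of all genes passed, 2 of the 5 did, Nrp1 and Vegfc. Vegfc passed on 9 UMIs in 8 cells, at 41.9 CPM (19.1 to 79.5) and 0 to 92.3 CPM over the barcode numbers. Nrp1, a co-receptor of Vegfa, had 298 CPM in endothelial-like, 261 CPM in macrophage-like and 168 CPM in VLMC-like cells. Within the endothelial-like cells it was 4.69 times (2.52 to 8.31) as high in the Plvap-positive cells, and Nrp2 6.48 times (1.43 to 24.2). In the 6 positive cells these ratios rest on 17 Nrp1 UMIs in 3 cells and 4 Nrp2 UMIs in 3 cells. Vegfd, a ligand of the receptor Flt4, was highest in pars tuberalis-like cells with 295.5 CPM, against 13.2 CPM in VLMC-like cells. Flt4 itself, under the minimum for the fold, had 8 UMIs in endothelial-like cells (37.2 CPM), or 80% of its UMIs. Vegfb, at 37.5 CPM in neuron-like cells, had no UMI in endothelial-like or mural-like cells.

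Of the Tie list, Ptprb, a phosphatase that acts on Tek, passed in endothelial-like cells at 372 CPM. Tie1 was at 177 CPM there and had 21 UMIs elsewhere, so that it met the minimum only through these cells. Of the adrenomedullin receptor list, 3 of 5 passed in endothelial-like cells (3.06% of all genes). They were Ramp2 (1507 CPM), Ramp3 (121 CPM) and the scavenging receptor Ackr3 (102 CPM). Ackr3 also passed in mural-like cells, at the higher level of 232 CPM (176 to 300). Ramp1 was at 18.6 CPM in endothelial-like cells and reached 909 CPM in ependymocyte-like and 857 CPM in astrocyte-like cells. Calcrl, the receptor subunit itself, had 5 UMIs in endothelial-like cells (23.3 CPM) and 83.6 CPM in VLMC-like cells, where it passed together with Ramp2 at 867 CPM. Between Plvap-positive and Plvap-negative cells, Ramp2 was at 0.498 times (0.255 to 0.883) and Ramp3 at 8.10 times (3.28 to 19.0). In the 6 positive cells these ratios rest on 12 Ramp2 UMIs in 3 cells and 10 Ramp3 UMIs in 4 cells.

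Of the nitric oxide list, 1 of 5 genes passed in endothelial-like cells (3.06% of all genes), Cav1 (246.5 CPM), which binds Nos3. In mural-like cells (2.37% of all genes) 3 of 5 passed, Cav1 (144 CPM), Gucy1a1 (521 CPM) and Gucy1b1 (565 CPM). Gucy1a1 and Gucy1b1 are subunits of soluble guanylate cyclase, which receives the nitric oxide signal. The hypoxia signalling and response list had 11 genes, which include regulators of Vegfa. In endothelial-like cells 2 of them passed, Epas1 (791 CPM) and Slc2a1 (2577 CPM), and in mural-like cells 1 did (Epas1, 473 CPM). Slc2a1 is also in the barrier list and was counted in both, with no UMI in the Plvap-positive cells. None was 4-fold higher in astrocyte-like cells, where 1.64% of all genes were. Hif1a had a level of 143 CPM in the astrocyte-like and of 60.5 CPM in the endothelial-like group. Of the 10 barrier genes, 9 passed in endothelial-like cells, all but Mfsd2a (330.2 CPM), which was as high in astrocyte-like cells (316 CPM). Of the sprouting and pericyte list, 1 of 3 passed in endothelial-like cells, Pdgfb (79.1 CPM), while its receptor Pdgfrb passed in mural-like (352 CPM) and VLMC-like cells (141 CPM). None of the 8 lists had a gene at least 4-fold higher in the Col25a1 cluster, where 0.323% of all genes were.

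Over the 13 cell types, the gene most similar to Vegfa by Pearson correlation of log2(CPM + 10) was Spon1 (r = 0.893), followed by Ptdss2 and Tm7sf2. The nearest gene to Pgf was Angpt1 (r = 0.92), to Angpt1 Slc30a10 (0.968) followed by Pdgfrb (0.95), and to Angpt2 Hspb1 (0.92). Sox17 was nearest to Flt1 (0.978), Kdr (0.979) and Plvap (0.971), and Adgrl4 to Tek (0.994). Ocln was nearest to Nos3 (0.969) and Eapp to Adm (0.883). The points of these correlations share libraries, and for the endothelial genes 1 type out of 13 sets the value, so they are descriptions without a test.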

How the data were processed

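The authors sorted live single cells of the mouse ME and made 3' libraries with droplet chemistry. Per the submitters' processing notes the reads were counted with Cell Ranger 2.0 on GRCm38 (mm10), and the deposited matrix holds whole-number UMI counts per gene and cell without normalization. The annotation release and the use of strand are not given in the sources used here. The matrix has no columns of per-sample values (0 left unused), and 27722 of 27998 gene identifiers were matched to symbols in GENCODE vM21.

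From these counts, cells were clustered with scanpy 1.11.5 (2000 variable genes without the 10 members, 30 principal components, 15 neighbours, Leiden resolution 1 with igraph 0.11.9). Clusters were called after cell types from lists of 5 to 8 markers. The marker score had to be at least 0.3 and 1.5 times the next. At least 3 markers also had to be 4-fold higher than the median over the clusters, with 10 CPM added to each level. 658 cells stayed uncalled, and 3 cells with over 10% haemoglobin UMIs (4 genes) were set apart. Scrublet called 50 doublets (0.836%), which were kept, and no filter was put on cells, whose lowest total was 1533 UMIs. Levels are CPM of summed UMIs, with exact Poisson intervals, and shares have Clopper-Pearson intervals at 95%. A count of 0 was read as a limit of 3 counts. Ratios of levels have intervals from the binomial split of their counts. For the fold of a type against all other cells, 10 CPM was added and genes needed 50 UMIs. Genes named are the 10 members, 8 fixed pathway lists with 50 genes, and the 3 genes (100 UMIs or more) most correlated with each member. The members and lists were chosen with earlier results of these data known. The clustering step was also run on counts simulated from the summed profiles of the called types, which cannot test the calls themselves. The fold step was run on simulated counts with set folds. Alternatives were other clusterings, cell filters, depths, thresholds and leaving out each barcode number.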

Additional observations from a re-analysis of the deposited data

Results flagged for a closer look

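Of the 3 cells set apart for haemoglobin, 1 held all 6 Flt1 UMIs of these cells, or 278 CPM over the 3 cells. This signal lies in cells that entered no comparison and was above the limit that a count of 0 allows. The cell had 5328 UMIs in all, with 33 UMIs of the endothelial marker Itm2a, 6 of Cldn5 and 0 of Plvap.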

How the results depend on the processing

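No paired analysis was possible because the cells cannot be tied to the libraries, so neither the replicate block nor any comparison of conditions was run. Leaving out each barcode number gave 18.7 to 66.4 CPM for Angpt2, 68.4 to 140.2 CPM for Adm and 186 to 458 CPM for Plvap in endothelial-like cells. The lowest values were those without number 1 for Angpt2 and Adm and without number 4 for Plvap. The 427 genes at least 4-fold higher in endothelial-like cells became 673 with a pseudocount of 1 CPM and 167 with 50 CPM. The 7 members became 4 (Flt1, Kdr, Tek and Plvap) with 50 CPM, and 4 (Flt1, Nos3, Adm and Plvap) with a minimum of 200 UMIs, since Kdr, Tek and Angpt2 have fewer. Leaving out each number gave 5 to 7 members, the 5 without number 1. With 50 CPM no member passed in mural-like or astrocyte-like cells (0 each). The levels of the 10 genes in their highest type stayed inside their intervals under the other clusterings, without doublets, with the cell filter, thinned and as means of single cells. Outside these types, Adm in tanycyte-like cells was 29.6 CPM and Plvap in neuron-like cells 3.75 CPM after thinning. Angpt2 in pars tuberalis-like cells was 73.3 CPM at Leiden resolution 2, where 32 cells were called that type, against 83 in the main clustering. The cause of these shifts was not tested. K-means with 9 clusters left no tanycyte-like, ependymocyte-like, neuron-like, pars tuberalis-like, microglia-like, macrophage-like, OPC-like or differentiating OPC-like cluster to give a value. Leaving out the clusters of 37 and 21 cells and, for the Plvap division, the doublets, and applying the minimum outside the cell type, were chosen after seeing the data. With 84 endothelial-like and 78 mural-like cells, depth limits what can be said of genes with few UMIs there, and 6 Plvap-positive cells allow no firm level.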
